A study of Homo sapiens with 36 samples.

Results

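The mRNA levels of EWSR1, FLI1 and TAF15 were followed in TC32 Ewing sarcoma cells in which SUPT6H, SF3B1 or HNRNPH1 had been silenced. The members were all probes that carry 1 of these 3 gene symbols in the table of bead signals. These were 6 probes of 47323: 3 for EWSR1, 1 for FLI1 and 2 for TAF15. All 6 passed the filter on dim probes, which kept 19738 probes detected at p below 0.01 on at least 3 of 36 arrays.

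TC32 is an established cell line from Ewing sarcoma, a tumour of bone and soft tissue. Each of the 3 genes was silenced with 3 different siRNAs at 20 nM, each siRNA was hybridised to 3 Illumina HT-12 arrays, and RNA was taken 48 h after transfection. The siRNAs were siSUPT6H_A1, siSUPT6H_A3 and siSUPT6H_Q3, siSF3B1_A2, siSF3B1_A3 and siSF3B1_Q3, and siHNRNPH1_A2, siHNRNPH1_A3 and siHNRNPH1_Q3. The controls were 6 arrays of siNeg, a negative control siRNA, and 3 arrays of Untreated cells, whose labels also carry the 20 nM dose. All arrays share the one cell line, and nothing in the labels says that replicates came from separate cultures, so p-values measure the spread between these arrays, which may be technical. The siNeg arrays formed 2 sets of 3. In the authors' normalized table set 1 (replicates 1 to 3) shared its median, 6.533 to 6.534, with siSUPT6H, siSF3B1 and Untreated (array set 1, 24 arrays). Set 2 (replicates 4 to 6) shared its median, 6.44, with siHNRNPH1 (array set 2, 12 arrays). No label says what parts the array sets, and each siRNA was compared with the siNeg arrays of its own set. Because siSUPT6H and siSF3B1 share set 1, their changes are not independent of each other.

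SUPT6H encodes a histone chaperone of the elongating RNA polymerase II, SF3B1 a subunit of the U2 snRNP that recognises branch points, and HNRNPH1 a protein that binds G-rich RNA and steers exon choice. EWSR1 and TAF15 belong to the FET family, RNA-binding proteins that join transcription to splicing. In Ewing sarcoma a translocation places the 3′ part of FLI1, an ETS transcription factor otherwise used by blood cells and endothelium, behind the promoter and 5′ part of EWSR1, and the fusion protein drives the tumour's expression programme. The fusion transcript therefore holds sequence of both genes, and a probe can read the fusion, the unrearranged gene, or both, depending on where it lies. The files give no probe sequences or positions, so the transcripts that each probe reads are not told apart here.

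The silenced genes and the cell identity were checked first. SUPT6H fell by 1.77 on the log2 scale with its siRNAs, SF3B1 fell by 1.29 and HNRNPH1 fell by 1.35, and the silenced arrays did not overlap the siNeg arrays for any of the 3 genes. The 3 siRNAs left 39.6% to 42.6% of SF3B1 and 37.4% to 41% of HNRNPH1. With SUPT6H they differed more: siSUPT6H_Q3 left 45.9%, siSUPT6H_A3 left 25.2% (detected on 2 of 3 arrays), and with siSUPT6H_A1 SUPT6H was detected on none of its 3 arrays, so at most 25.7% was left. All 6 Ewing sarcoma markers with a probe, of 7 listed (CD99, NKX2-2, STEAP1, LIPI, BCL11B and PRKCB), were detected on all 36 arrays. Of the blood cell markers 7 of 9 with a probe, and of the endothelial markers 6 of 7, were detected on 0 arrays. The remaining endothelial marker, PECAM1, was detected on every siSUPT6H array and on no other array. A mean of 1 to 1.33 blood cell markers per array was detected with the siHNRNPH1 siRNAs, against 0 to 0.667 in all other groups. Between 13106 and 16788 probes were detected per array.

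EWSR1 had 3 probes. ILMN_1727041, its lead probe (the one with the highest mean signal), and ILMN_1697735 were annotated to the transcript NM_005243, and ILMN_2413251 to the alternative transcript NM_013986. All 3 were detected on all 36 arrays. EWSR1 lies on chromosome 22 and starts head to head with RHBDD3, which encodes a rhomboid-like protein and is read from the opposite strand. The stretch between both annotated genes, from which the EWSR1 side of the fusion gene is also driven, is shown because both neighbours were measured and their changes are set side by side further on. It spans chr22:29268164-29268267 (GRCh38.p14, plus strand, 104 bases, RefSeq), directly upstream of the EWSR1 start:
EWSR1-RHBDD3 interval: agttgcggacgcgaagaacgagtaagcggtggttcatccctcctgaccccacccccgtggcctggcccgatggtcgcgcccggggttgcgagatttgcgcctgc
Capitals would mark GGAA, the core that ETS factors bind, on either strand. The stretch holds 0 copies on either strand, whereas 68.3% of 35116 annotated promoters hold at least 1 in a window of the same length and position. That says only that these letters are not in this window.

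With SUPT6H silenced, EWSR1 was lower by all 3 probes. On the lead probe, ILMN_1727041, the siNeg set 1 arrays lay at a log2 level of 10.01, 10.01 and 10.01. The 9 siSUPT6H arrays lay between 9.37 and 9.75, with a median of 9.57, all below the controls. The change was -0.44 (SE 0.09, adjusted p = 0.000112, limma, here and below with Benjamini-Hochberg adjustment over all 19738 kept probes), or 73.5% of the control level with a 95% interval of 64.5% to 83.8%. The second probe, ILMN_1697735, changed by -0.48 (SE 0.09, adjusted p = 6.98e-06, limma). The third probe, ILMN_2413251, changed by -0.63 (SE 0.11, adjusted p = 8.15e-06, limma), which was -0.38 without background correction. Neither of these probes' silenced arrays overlapped their controls, and every siRNA was called on every EWSR1 probe. In RNA from whole cultures, fewer cells that hold a transcript and less of it per cell cannot be told apart, here and below.

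With SF3B1 silenced EWSR1 fell on all 3 probes. On ILMN_1727041 the 9 siSF3B1 arrays lay between 8.68 and 9.18, with a median of 8.93, below every siNeg and every siSUPT6H array. The change was -1.04 (SE 0.09, adjusted p = 1.1e-13, limma), or 48.6% of control (95% interval 42.6% to 55.4%). ILMN_1697735 changed by -0.72 (adjusted p = 5.16e-10, limma) and ILMN_2413251 by -0.53 (adjusted p = 8.95e-05, limma, and -0.32 without background correction), again with no overlap. The latter was called with siSF3B1_A2 and siSF3B1_A3, whereas siSF3B1_Q3 gave -0.31 (adjusted p = 0.0535, limma).

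With HNRNPH1 silenced 1 of the 3 EWSR1 probes was called. The siNeg set 2 arrays of ILMN_1727041 lay at 10.17, 9.96 and 9.99, and the 9 siHNRNPH1 arrays between 9.57 and 10.07 with a median of 9.86. The groups overlapped, and the change of -0.20 (SE 0.09, 95% interval -0.39 to -0.01) did not pass the test (adjusted p = 0.0952, limma). ILMN_1697735 was lower, by -0.26 (SE 0.09, adjusted p = 0.0145, limma), with overlapping groups. That call was lost without siNeg replicate 5 (-0.21, adjusted p = 0.109, limma), without siNeg replicate 6 (-0.23, adjusted p = 0.0807, limma), and with the siRNA or siNeg set as a random block (adjusted p = 0.3, limma). For ILMN_2413251 the difference was +0.11 (95% interval -0.11 to 0.34, adjusted p = 0.47, limma).

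FLI1 was read by 1 probe, ILMN_1665738 (transcript NM_002017). It was detected on 31 of 36 arrays, and the 5 arrays without detection were all siHNRNPH1 arrays. With SUPT6H silenced it did not pass the test: the siNeg set 1 arrays lay at 6.21, 6.68 and 6.50, and the 9 siSUPT6H arrays between 5.92 and 6.94 with a median of 6.56. The difference was -0.01 (SE 0.14, 95% interval -0.28 to 0.26, adjusted p = 0.961, limma), and the groups overlapped. With all 6 siNeg arrays as controls, which mixes the array sets, the value turned to 0.59 (adjusted p = 0.00424, limma). The control sets themselves differed for FLI1, which was lower in siNeg set 2 than in set 1 by -1.21 (adjusted p = 4.78e-08, limma). Of the 6 probes 4 differed between the siNeg sets, among them both TAF15 probes (higher in set 2 by 0.45 and 0.40) and EWSR1 ILMN_1697735 (by 0.39), where 34.7% of all kept probes did.

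FLI1 rose with SF3B1 silenced, the only rise among the 6 probes. The 9 siSF3B1 arrays lay between 7.005 and 7.85 with a median of 7.43, above every control and every siSUPT6H array. The change was +0.98 (SE 0.14, adjusted p = 1.79e-08, limma), or 197% of control (95% interval 163% to 238%). It was called with each siRNA, at +1.17 with siSF3B1_A2, +0.71 with siSF3B1_A3 and +1.05 with siSF3B1_Q3. The size depended on the scale: it was 0.62 without background correction, 0.65 in the authors' normalized values and 1.58 with all 6 siNeg arrays as controls, and it was called in each case. The blood cell markers, summed on the linear neqc scale, lay between 177 and 211 with SF3B1 silenced and between 188 and 194 in siNeg set 1, with 7 of the 9 at no detection on any array. The endothelial sum lay between 138 and 153 against 144 and 146, with no endothelial marker detected in either group. Both sums are therefore mainly background and cannot tell whether blood cell or endothelial transcripts changed.

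With HNRNPH1 silenced FLI1 was detected on fewer than all arrays. The siNeg set 2 arrays lay at 5.25, 5.16 and 5.34, and the 9 siHNRNPH1 arrays between 4.41 and 5.37 with a median of 4.95, of which 4 were detected. The difference of -0.31 (SE 0.14, 95% interval -0.58 to -0.04) did not pass the test (adjusted p = 0.0638, limma), and the groups overlapped. The siHNRNPH1_A3 siRNA alone was called (-0.44, adjusted p = 0.0345, limma). Without the highest silenced array, siHNRNPH1_A3 replicate 3, the difference was -0.40 and called (adjusted p = 0.00664, limma). With all 6 siNeg arrays as controls it was -0.92 and called (adjusted p = 3.77e-05, limma), and without background correction it was -0.10 (adjusted p = 0.237, limma).

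TAF15 fell with all 3 targets on both probes, ILMN_1678707 (transcript NM_139215) and ILMN_2402131 (transcript NM_003487), each detected on all 36 arrays. On the lead probe, ILMN_1678707, the siNeg set 1 arrays lay at 10.72, 10.53 and 11.002, the 9 siSUPT6H arrays between 9.52 and 10.28 with a median of 9.65. All silenced arrays were below the controls, with a change of -0.97 (SE 0.09, adjusted p = 5.56e-13, limma), or 51.04% of control (95% interval 45.1% to 57.8%). ILMN_2402131 changed by -1.17 (SE 0.10, adjusted p = 6.63e-14, limma), also without overlap.

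SF3B1 silencing also lowered TAF15 on both probes. The 9 siSF3B1 arrays of ILMN_1678707 lay between 9.43 and 9.92 with a median of 9.70, all below siNeg set 1. The changes were -1.08 on ILMN_1678707 (SE 0.09, adjusted p = 6.42e-15, limma) and -0.88 on ILMN_2402131 (SE 0.10, adjusted p = 1.47e-10, limma).

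With HNRNPH1 silenced both TAF15 probes fell as well. The siNeg set 2 arrays of ILMN_1678707 lay at 11.23, 11.13 and 11.23, and the 9 siHNRNPH1 arrays between 10.44 and 11.13 with a median of 10.50. Of the silenced arrays only the highest, siHNRNPH1_Q3 replicate 1, reached the controls, and the change was -0.59 (SE 0.09, adjusted p = 4.24e-07, limma; -0.36 with all 6 siNeg arrays as controls). ILMN_2402131 changed by -0.94 (SE 0.10, adjusted p = 6.04e-11, limma), without overlap, which left 52.1% of control (95% interval 45.2% to 59.9%).

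**Figure D1:**
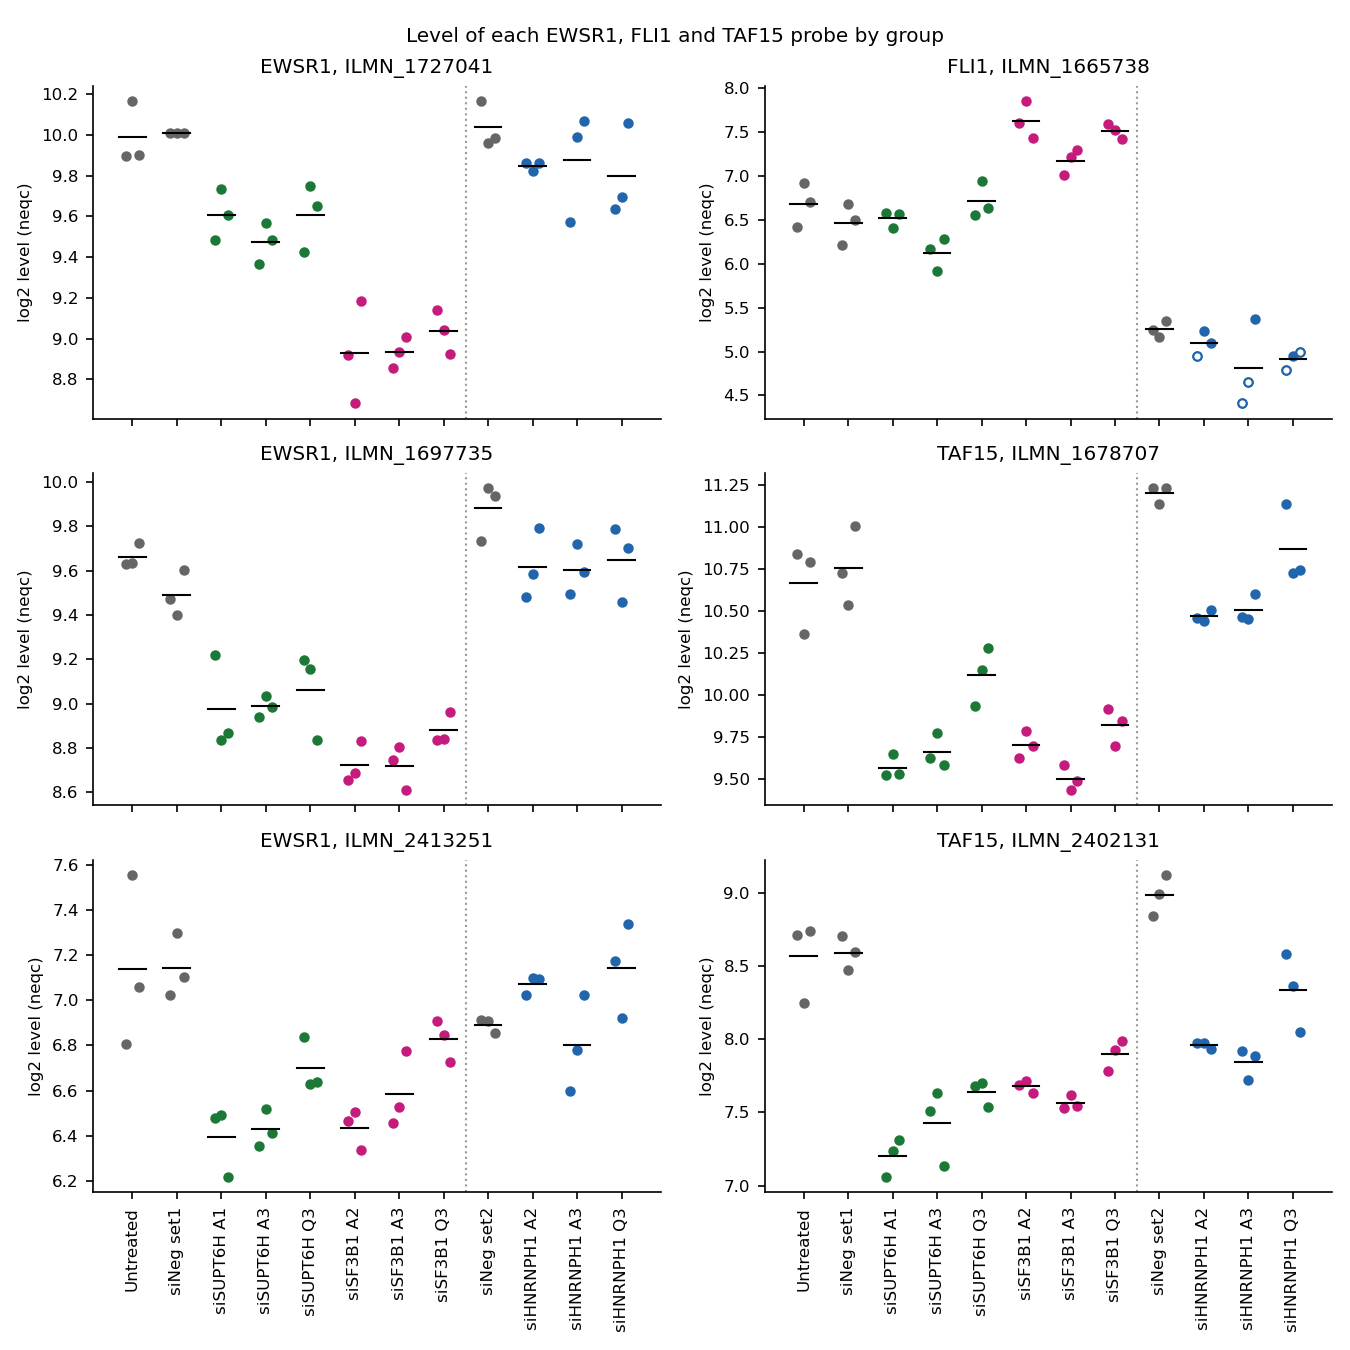
Log2 level after neqc normalization (vertical axis, its own range in each panel) of each of the 6 probes on every array, by group; points are arrays, open points arrays without detection at p below 0.01, black lines means of 3 arrays, and the dotted line parts the 2 array sets. In the left panels the EWSR1 points of siSF3B1 lie below those of siNeg set 1, and FLI1 lies highest with siSF3B1 (7.005 to 7.85). The TAF15 means lie below those of their siNeg set with every siRNA. Among the TAF15 points only 1 silenced array, siHNRNPH1_Q3 replicate 1 on ILMN_1678707, reaches its controls.

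Counted over the 6 probes, 5 were called with siSUPT6H, all lower, where 40.4% of all kept probes were called. With siSF3B1 all 6 were called, 5 lower and FLI1 higher, against 56.7% of all kept probes. With siHNRNPH1 3 were called, all lower, against 37.8%. Called with each of the 3 siRNAs in the same direction were 5 probes with siSUPT6H (18.9% of all kept probes), 5 with siSF3B1 (37.4%) and 2 with siHNRNPH1 (15.2%). The 6 probes share 3 genes and are not 6 independent cases. Between siNeg set 1 and Untreated cells 0 of the 6 were called by limma, and 0 had an unadjusted p below 0.05. The differences there ran from -0.22 to 0.09 (adjusted p 0.421 to 0.999, limma), where 5.52% of all kept probes were called.

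**Figure D2:**
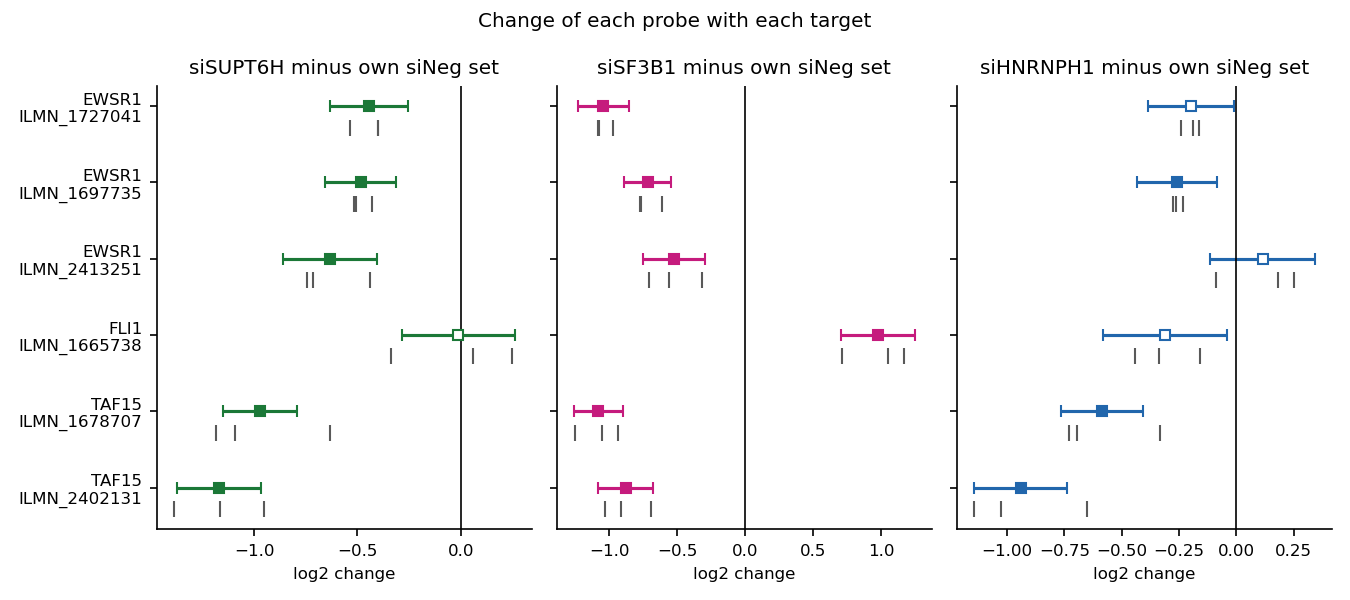
Log2 change of each probe (rows) with each target against the siNeg set of its array set (horizontal axis, its own range in each panel); squares with bars are the mean of 3 siRNAs with its 95% interval, filled where called, and grey ticks under them are the single siRNAs. The bars of EWSR1 and TAF15 lie left of 0 with siSUPT6H and siSF3B1, and that of FLI1 lies right of 0 with siSF3B1 only.

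The 3 siRNAs of a target differed on both TAF15 probes with siSUPT6H and siHNRNPH1, and on no EWSR1 probe. Moderated F tests among siSUPT6H_A1, siSUPT6H_A3 and siSUPT6H_Q3 called both TAF15 probes (adjusted p = 0.000139 and 0.0181, limma) and FLI1 (adjusted p = 0.015, limma), so 3 of 6, where 27.3% of all kept probes were called. TAF15 on ILMN_1678707 changed by -1.19 with siSUPT6H_A1, -1.09 with siSUPT6H_A3 and -0.63 with siSUPT6H_Q3. The smallest fall thus came with siSUPT6H_Q3, the siRNA that left most SUPT6H. FLI1 changed by +0.06, -0.34 and +0.25 with the same siRNAs, and none of these passed the test against siNeg on its own.

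Among the siHNRNPH1 siRNAs the F test called the 2 TAF15 probes (adjusted p = 0.00455 and 0.00336, limma), 2 of 6 against 33.7% of all kept probes. ILMN_1678707 changed by -0.73 with siHNRNPH1_A2, -0.69 with siHNRNPH1_A3 and -0.33 with siHNRNPH1_Q3. The HNRNPH1 left was 39.3%, 41% and 37.4% with the same siRNAs. Among the siSF3B1 siRNAs 0 of 6 were called (adjusted p 0.105 to 0.77, limma, with 4 of 6 at an unadjusted p below 0.05), against 11.2% of all kept probes.

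Differences between targets were tested in the same model. Between siSF3B1 and siSUPT6H 4 of 6 probes differed, where 69.2% of all kept probes did. EWSR1 was lower with siSF3B1 by -0.60 on ILMN_1727041 (adjusted p = 2.91e-11, limma) and by -0.23 on ILMN_1697735 (adjusted p = 0.000721, limma), while ILMN_2413251 differed by +0.11 (95% interval -0.05 to 0.27, adjusted p = 0.231, limma). FLI1 was higher by 0.99 (adjusted p = 3.9e-13, limma), which was 0.62 without background correction. TAF15 was higher by 0.29 on ILMN_2402131 (adjusted p = 0.000324, limma), while ILMN_1678707 differed by -0.11 (95% interval -0.24 to 0.02, adjusted p = 0.122, limma).

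The changes with siHNRNPH1, each against its own siNeg set, differed from those with siSF3B1 for 5 of 6 probes, against 46.1% of all kept probes. The difference was 0.84 for EWSR1 on ILMN_1727041 (adjusted p = 6.38e-07, limma) and -1.29 for FLI1 (adjusted p = 1.8e-07, limma, and -0.72 without background correction). For EWSR1 it was also called on ILMN_1697735 (0.46, adjusted p = 0.00162, limma) and ILMN_2413251 (0.64, adjusted p = 0.000904, limma, and 0.40 without background correction). TAF15 on ILMN_1678707 fell less with siHNRNPH1, by a difference of 0.49 (adjusted p = 0.00111, limma), and on ILMN_2402131 the difference was -0.06 (95% interval -0.35 to 0.22, adjusted p = 0.748, limma). Against siSUPT6H 2 of 6 differed, against 24.7% of all kept probes: EWSR1 on ILMN_2413251 by 0.75 (adjusted p = 0.000348, limma, and 0.46 without background correction) and TAF15 on ILMN_1678707 by 0.38 (adjusted p = 0.0199, limma). With the siRNA or siNeg set as a random block 7 of these 11 calls were lost. The differences of EWSR1 on ILMN_1727041 (adjusted p = 1.25e-05 between siSF3B1 and siSUPT6H and 0.0053 between siHNRNPH1 and siSF3B1, limma) and of FLI1 (adjusted p = 2.17e-06 and 0.00458, limma) were still called.

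Within array set 1 the levels could be put in order. On ILMN_1727041, EWSR1 was highest in siNeg set 1 (10.01) and Untreated cells (9.99), followed by siSUPT6H_Q3 (9.61), siSUPT6H_A1 (9.61), siSUPT6H_A3 (9.47), siSF3B1_Q3 (9.04), siSF3B1_A3 (8.93) and siSF3B1_A2 (8.93). The ranges of neighbours overlapped within the controls, within siSUPT6H and within siSF3B1, and parted between these 3 blocks. The other EWSR1 probes did not keep that order: on ILMN_1697735 siSUPT6H_A1 overlapped siSF3B1_Q3, and on ILMN_2413251 siSF3B1_Q3 (6.83) lay above siSUPT6H_Q3 (6.70) and every range overlapped the next. FLI1 began with siSF3B1_A2 (7.63) and siSF3B1_Q3 (7.51), whose ranges overlapped, then siSF3B1_A3 (7.17), which overlapped neither neighbour. Below it each of siSUPT6H_Q3 (6.71), Untreated (6.68), siSUPT6H_A1 (6.52), siNeg set 1 (6.46) and siSUPT6H_A3 (6.12) overlapped the next. TAF15 on ILMN_1678707 began with siNeg set 1 (10.75) and Untreated (10.66), then siSUPT6H_Q3 (10.12), which overlapped neither neighbour. From siSF3B1_Q3 (9.82) through siSF3B1_A2, siSUPT6H_A3 and siSUPT6H_A1 to siSF3B1_A3 (9.50) each range overlapped the next. The other TAF15 probe, ILMN_2402131, did not keep that order. There siSF3B1_Q3 (7.90) came next after the controls and overlapped neither neighbour. From siSF3B1_A2 (7.68) through siSUPT6H_Q3 (7.64) down to siSUPT6H_A1 (7.20), the lowest, each range overlapped the next.

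The difference between probes of one gene was taken within each array, and tested by an exact permutation test of 9 silenced against 3 siNeg arrays (two-sided, smallest possible p 0.0091). The test treated all arrays as exchangeable, although the 9 were 3 arrays of each of 3 siRNAs. Its p-values, on every scale, may therefore be too small. Between the EWSR1 probes ILMN_1727041 and ILMN_1697735 the log2 difference was 0.51 ± 0.10 (SD, n = 3) in siNeg set 1 and 0.19 ± 0.15 (SD, n = 9) with siSF3B1, without overlap (exact p = 0.0091, adjusted over 12 such tests 0.0727). Against ILMN_2413251 the same probe's difference went from 2.87 ± 0.14 (n = 3) to 2.35 ± 0.21 (n = 9), with overlap (exact p = 0.0182, adjusted 0.0727). For TAF15 the difference between ILMN_1678707 and ILMN_2402131 was 2.21 ± 0.15 (n = 3) in siNeg set 2 and 2.57 ± 0.12 (n = 9) with siHNRNPH1, with overlap (exact p = 0.0182, adjusted 0.0727).

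None of the 12 exact tests passed after adjustment, 5 had an unadjusted p below 0.05, and 1 pair of groups did not overlap. Even at the smallest possible p of 0.0091, 1 test alone could not pass adjustment over 12 tests. The lack of a pass therefore does not show that the probes of a gene changed alike. The outcome depended on the scale, since 5 of 12 passed without background correction (lowest adjusted p 0.0364, exact test) and 5 of 12 in the authors' normalized values (lowest adjusted p 0.0436, exact test). It also depends on how many tests come near the smallest possible p.

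**Figure D3:**
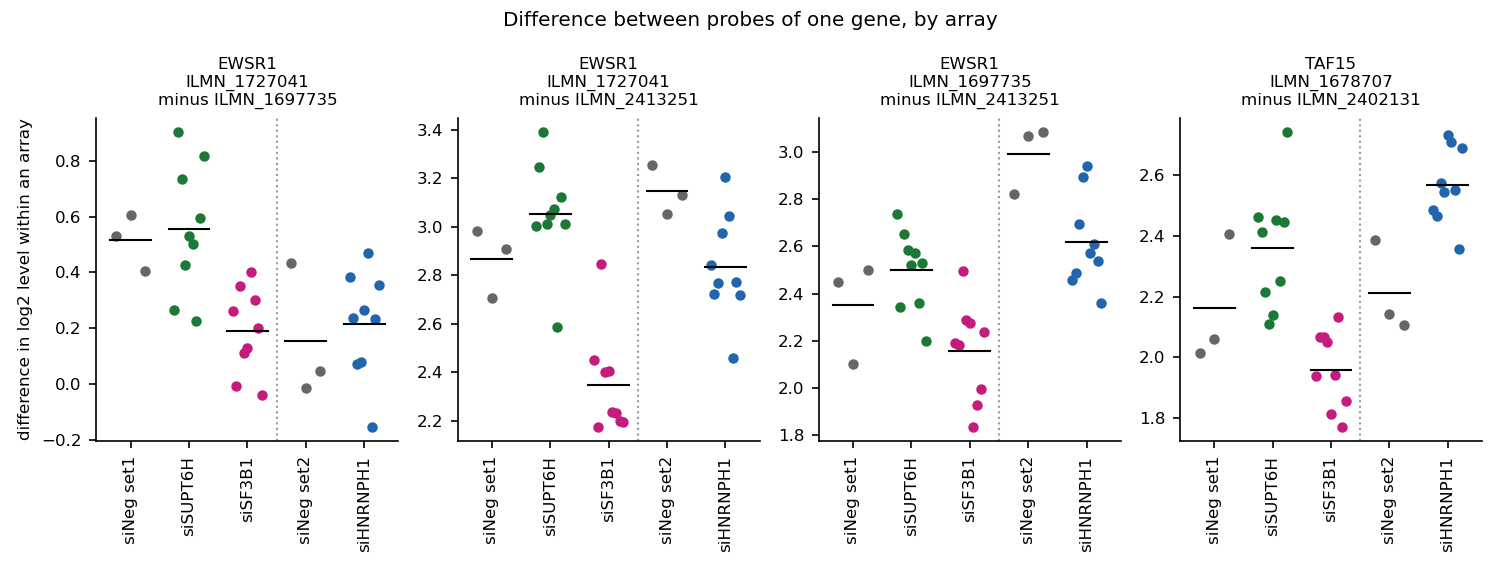
Difference in log2 level between 2 probes of one gene within each array (vertical axis, its own range in each panel), by siNeg set and target; points are arrays, black lines group means, and the dotted line parts the 2 array sets. In the first panel the siSF3B1 points (mean 0.19) lie below all 3 siNeg set 1 points (mean 0.51), the one pair of groups without overlap.

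RHBDD3, the neighbour of EWSR1 at the stretch printed above and chosen after its values had been seen, did not pass the test with siSUPT6H (+0.12, adjusted p = 0.502, limma). It was lower with siSF3B1 (-0.58, adjusted p = 9.29e-05, limma) and with siHNRNPH1 (-0.44, adjusted p = 0.00418, limma). EWSR1 on its lead probe was called with siSUPT6H and siSF3B1, and RHBDD3 with siSF3B1 and siHNRNPH1; the difference between both genes was not tested.

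Genes whose level followed a member most closely over the 24 arrays of array set 1 are given as a description, since those arrays share controls, silenced genes and processing. For EWSR1 these were LIN7B (Pearson r = 0.97), ESYT1 (0.96), ANAPC1 (0.95) and CENPS (0.95), and over the 12 arrays of array set 2 the r of these genes was 0.66, 0.27, 0.37 and 0.36. For FLI1 they were CDC5L (0.97), SPCS3 (0.95), TRIM27 (0.95) and PRPF18 (0.94), with r of 0.28, 0.13, 0.14 and -0.17 in array set 2. For TAF15 they were CIRBP (0.94), PTPMT1 (0.94), SARS2 (0.93) and RPS6KA2 (0.92), with r of 0.06, 0.06, 0.51 and 0.77 in array set 2. The genes were picked on array set 1, so its higher r follows from the choice.

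The wider pathway was described with 6 gene lists, each gene by its lead probe. The lists were chosen with earlier results of these data known, so the shift of a list may partly follow from that choice. Higher calls made up 24.9% of all 11437 genes with siSUPT6H and lower calls 21.2%. These shares were 25.9% and 35.3% with siSF3B1, and 20.9% and 22.8% with siHNRNPH1. Over all genes the median was 0.03 with siSUPT6H, -0.06 with siSF3B1 and -0.02 with siHNRNPH1.

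Of 13 genes that join FET genes or EWSR1 in sarcoma translocations, 6 were measured. With siSUPT6H 2 were called (median -0.21), of which DDIT3 fell and ETV4 was not above background in siNeg, with siSF3B1 0 rose and 3 fell (median -0.29, or -0.25 with PATZ1 at its bound), and with siHNRNPH1 1 rose and 3 fell (median -0.18). DDIT3, a stress-induced transcription factor, changed by -3.78, -0.55 and -2.87 with siSUPT6H, siSF3B1 and siHNRNPH1 (adjusted p = 1.21e-35, 1.18e-06 and 1.59e-30, limma). ETV4 was detected on 1 of 9 silenced and 0 of 3 siNeg arrays, so neither a size nor a direction is given. PATZ1, a zinc finger protein, was detected on all 3 siNeg arrays and on none with siSF3B1, which makes it at least 1.16-fold lower. With siHNRNPH1 CREB1, the cAMP-responsive factor, rose by 0.38 (adjusted p = 0.000263, limma).

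Other genes of the ETS family, to which FLI1 belongs, were measured for 14 of 22 listed. Of these 14, 3 rose and 1 fell with siSUPT6H (median 0.17), 9 rose and 0 fell with siSF3B1 (median 0.53), and 4 rose and 0 fell with siHNRNPH1 (median 0.26). The largest changes with siSUPT6H were those of ETV3, a repressor (0.85, adjusted p = 2.15e-07, limma), and ELF1, a factor of lymphoid genes (0.54, adjusted p = 0.00014, limma). The largest fitted changes with siSF3B1 were those of ELK4, a partner of serum response factor (1.27, adjusted p = 6.91e-11, limma, detected on 1 of 3 siNeg and all 9 silenced arrays), and ELF3, an epithelial factor. ELF3 was detected on none of the siNeg arrays and on 7 of 9 with siSF3B1, at least 1.57-fold higher, so it has no rank. GABPA, a factor of mitochondrial genes, detected on every array of both groups, rose by 0.87 (adjusted p = 1.51e-05, limma) and was chosen after its values had been seen. With siHNRNPH1 the largest were ETS2 (0.86, adjusted p = 2.29e-08, limma) and ELF1 (0.68, adjusted p = 4.15e-06, limma).

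Genes of proteins that work with FET proteins (16 measured of 17) were 2 higher and 8 lower with siSUPT6H (median -0.27), 7 higher and 5 lower with siSF3B1 (median 0.04), and 2 higher and 4 lower with siHNRNPH1 (median -0.06). POLR2A, the largest subunit of RNA polymerase II, rose by 0.74 with siSUPT6H (adjusted p = 5.97e-10, limma) and by 0.91 with siHNRNPH1 (adjusted p = 1.58e-12, limma). SNRPA, a U1 snRNP protein, fell by 0.68 with siSUPT6H (adjusted p = 4.73e-09, limma). With siSF3B1 TARDBP, which encodes the RNA-binding protein TDP-43, rose by 1.16 (adjusted p = 1.72e-11, limma) and SNRPC, another U1 snRNP protein, by 0.74 (adjusted p = 1.11e-10, limma). HNRNPA1, a splicing repressor, rose by 0.67 with siHNRNPH1 (adjusted p = 3.33e-07, limma).

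Among 15 measured cofactors of the fusion protein, chiefly BAF complex subunits and chromatin enzymes, 1 rose and 4 fell with siSUPT6H (median -0.05), 2 rose and 8 fell with siSF3B1 (median -0.22), and 2 rose and 3 fell with siHNRNPH1 (median -0.001). SMARCB1, a BAF core subunit, fell by 1.07 and CREBBP, an acetyltransferase, fell by 0.65 with siSUPT6H (adjusted p = 2e-13 and 4.37e-09, limma). With siSF3B1 SMARCC2, another BAF core subunit, fell by 1.20 (adjusted p = 4.36e-15, limma), and DHX9, the RNA helicase A that binds the fusion protein, rose by 1.02 (adjusted p = 3.34e-11, limma). With siHNRNPH1 SMARCA2, a BAF ATPase, rose by 0.57 and CHD4, the ATPase of the NuRD complex, by 0.42 (adjusted p = 6.86e-07 and 0.000222, limma).

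Genes listed as activated by the fusion protein (17 measured of 20) showed 4 higher and 6 lower with siSUPT6H (median -0.08). With siSF3B1 5 were higher and 4 lower (median -0.02), and with siHNRNPH1 1 was higher and 12 lower (median -0.33). AURKA, a mitotic kinase, fell by 1.31 and EZH2, the histone methyltransferase of Polycomb, fell by 0.99 with siSUPT6H (adjusted p = 1.02e-17 and 2.26e-09, limma). With siSF3B1 EZH2 fell by 1.32 and PRKCB, a protein kinase C, fell by 1.20 (adjusted p = 1.81e-13 and 8.27e-20, limma). HOXD13, a limb homeobox gene, fell by 1.13 with siHNRNPH1 (adjusted p = 1.47e-09, limma). The single rise there was DLK1, a Notch-related membrane protein, detected on none of the siNeg arrays and on 7 of 9 silenced arrays, at least 2.16-fold higher.

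Genes listed as repressed by the fusion protein (14 of 14 measured) were mostly higher with siHNRNPH1. There 12 rose, 0 fell and the median was 1.57, or 1.48 with the 1 gene undetected in siNeg at its bound. Whether the fusion protein represses each listed gene in these cells was not tested. With siSUPT6H 4 rose and 6 fell (median -0.07), and with siSF3B1 3 rose and 6 fell (median -0.21, or -0.13 with the 1 gene undetected in the silenced arrays at its bound). IGFBP3, an insulin-like growth factor binding protein, rose by 4.04 and COL1A1, a collagen, by 3.67 with siHNRNPH1 (adjusted p = 7.07e-33 and 2.33e-30, limma). Both are also made by fibroblasts, and the summed level of 6 fibroblast markers, of which COL1A1 is 1, was 2039 to 5776 with siHNRNPH1 against 1357 to 1439 in siNeg set 2 on the linear neqc scale, with 1 of the 6 detected on 0 arrays and 1 on all 36; its part in the result was not tested. That sum was 423 to 1060 with siSF3B1 and 974 to 1186 with siSUPT6H, against 1448 to 1808 in siNeg set 1. CDKN1A, the cell cycle inhibitor p21, rose by 2.18 and DKK1, a Wnt antagonist, fell by 1.53 with siSUPT6H (adjusted p = 4.91e-26 and 2.02e-17, limma; DKK1 was detected on 6 of 9 silenced arrays). With siSF3B1 PHLDA1 and IGFBP3 fell (adjusted p = 4.64e-19 and 2.99e-18, limma). PHLDA1 was detected on 2 of 9 and IGFBP3 on 1 of 9 silenced arrays, against all 3 siNeg arrays, so the size of either fall is not given.

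**Figure D4:**
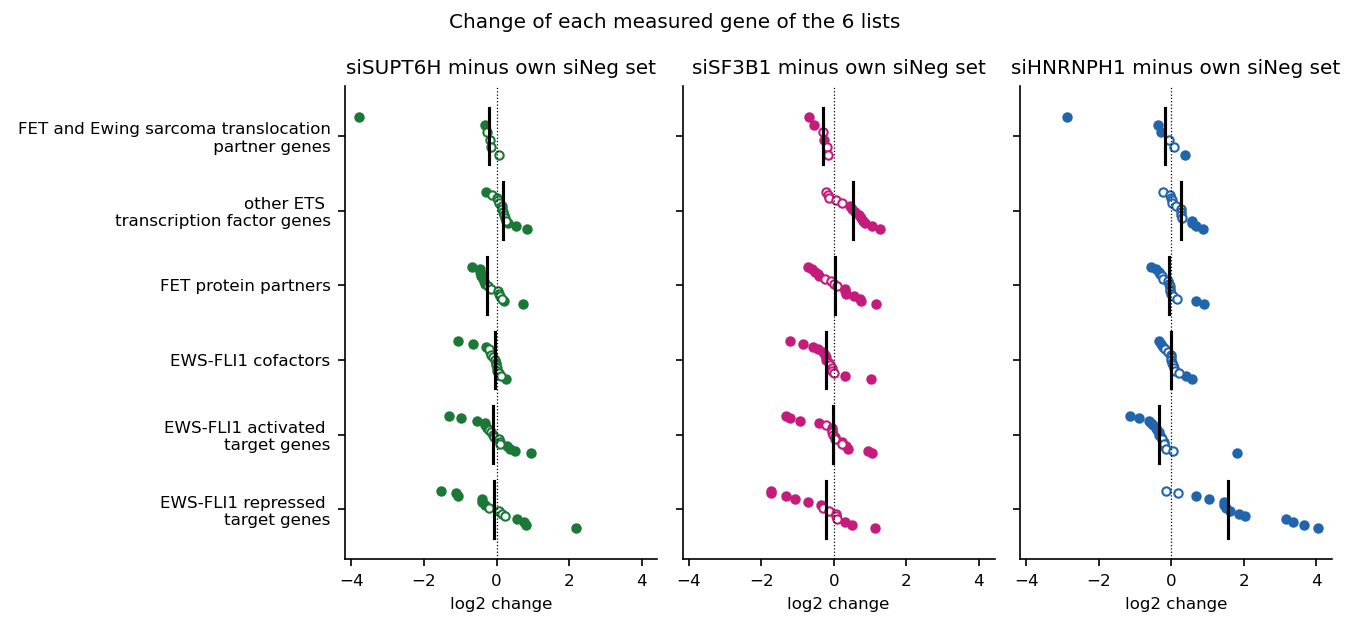
Log2 change of each measured gene (horizontal axis) in the 6 gene lists (rows) with each target against the siNeg set of its array set; filled points were called, open ones were not, and black bars are list medians. The listed repressed target genes lie mostly right of 0 with siHNRNPH1 (median 1.57). The other ETS genes lie mostly right of 0 with siSF3B1 (median 0.53). The lists were chosen with earlier results of these data known. Points of genes undetected in a whole group are fitted values, not bounds.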

How the data were processed

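Per the labels, total RNA of TC32 cells was labelled as cRNA for Illumina HT-12 arrays. The deposited intensity per probe (47323 probes, 36 arrays) was neither background-subtracted nor normalized, and a detection p-value was deposited beside each intensity. A second deposited table held log2 values (47231 probes) that the authors had normalized; GenomeStudio, R 3.0.2 and lumi are named per the submitters' processing notes, and the method is not given in the sources used here. Its medians, 6.533 to 6.534 on 24 arrays and 6.44 on 12, parted the arrays into 2 sets; no label names a run. The Untreated columns of the first table were matched to the labels as the names left over. For 36 of 36 arrays the best rank match between both tables was the array's own column.

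Intensities were background-corrected and quantile-normalized by neqc (offset 16; limma 3.58.1, R 4.3.3), and 1 model of 12 groups with the siNeg sets apart was fitted (24 residual degrees of freedom, eBayes with intensity trend, two-sided tests). A probe was called at an adjusted p below 0.05. Gene symbols came from the platform annotation (30113 probes with 1 symbol, 8 with several, 17202 with none), and the probe with the highest mean, the lead probe, stood for each of 11437 genes. Exact permutation tests used scipy 1.17.1. Where no array of a group detected a gene, its change is given as a bound, set against the lowest level among detected probes of each array. The number of arrays limits the precision.

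All probes of the members were named, with the 4 genes of highest correlation to each lead probe and the 2 called genes of largest change per list and target. Members and lists were chosen with earlier results of these data known. The model was tested on simulated data. Alternatives were other controls (all siNeg arrays, Untreated), no background correction, the authors' values, neqc within each array set, 2 other probe filters, 1 probe per gene, no intensity trend, a random block, a replicate block and leaving out each array.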

Additional observations from a re-analysis of the deposited data

How the results depend on the processing

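The calls of EWSR1 and TAF15 with siSUPT6H and siSF3B1, of TAF15 with siHNRNPH1 and of FLI1 with siSF3B1 were kept under every alternative that gave a value, for example -1.08 to -0.94 for EWSR1 ILMN_1727041 and 0.62 to 1.58 for FLI1 with siSF3B1. With all 6 siNeg arrays as controls FLI1 with siSUPT6H became 0.59 (higher, called), FLI1 with siHNRNPH1 -0.92 (called), and EWSR1 ILMN_1697735 with siHNRNPH1 -0.063 (not called); these probes and both TAF15 probes, 4 of 6, differed between the siNeg sets. With a random block for siRNA or siNeg set (correlation 0.383) the last was -0.26 and not called, and called probes went from 7967 to 3190 with siSUPT6H, from 11189 to 6637 with siSF3B1 and from 7470 to 2442 with siHNRNPH1. With siSF3B1 7304 were called among probes detected on all 36 arrays and 7082 with 1 probe per gene, as fewer probes were tested. Leaving out 1 array at a time moved EWSR1 ILMN_1697735 with siHNRNPH1 between -0.33 and -0.21 (lost without siNeg replicate 5 or 6), EWSR1 ILMN_1727041 between -0.24 and -0.13 (called without siHNRNPH1_Q3 replicate 3), and FLI1 between -0.40 and -0.24 (called without siHNRNPH1_A3 replicate 3). Arrays with the same replicate number deviated together, taken as r over 0.1, in 1 of 27 pairs (r -0.116 to 0.121). Whether such arrays shared a culture or handling was not tested. With the replicate block 8016, 11230 and 7525 probes were called, and no call of a member changed. The cause of these changes was not tested. FLI1 levels near background and 3 control arrays per set limit what could be told for siHNRNPH1.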
